A study of Mus musculus with 8 samples.

Results

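The chemokines of the CC, CXC, CX3C and C families were followed in lungs of newborn mice that had been kept in high oxygen. Members were taken by name from the array's gene annotation. Every symbol made of Ccl or Cxcl and a number was used, with Cx3cl1 and Xcl1 added and with Cxcl15, Ccl21a and Ccl28 left out. This gave 33 of 20839 named genes. Of these, 28 lay above the filter on dim features and were tested among 17229 genes, and 5 (Ccl1, Ccl20, Ccl22, Ccl26 and Cxcl2) lay below it. Each gene is given by 1 value per array, that of its feature with the highest mean over the 8 arrays. Values are log2 intensities, so a difference of 1 is a 2-fold difference, and the level of one gene cannot be set against that of another because their probes differ.

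Whole lungs were hybridised to 8 Agilent arrays with 1 dye, Cy3. The 4 arrays titled TG_hyperoxia carry the genotype label Fgf10 +/-, and the 4 arrays titled WT_hyperoxia carry the label wild-type. The C57Bl/6J background is labelled for every pup, and all were exposed to 85% oxygen from postnatal day 0 to day 3, so both groups share the oxygen and no array came from pups in room air. The allele of Fgf10, a growth factor of the lung mesenchyme, is not described further in the labels, and the sex of the pups and their litters are not given. The series' design text calls the samples of each group independent. Without named litters, p-values cover only the spread among these arrays. Arrays are named below by their labelled genotype and the replicate number in their title.

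Chemokines are small secreted proteins that draw leukocytes along a gradient by binding receptors coupled to G proteins on the cell surface. One set is induced within hours in macrophages, epithelium and endothelium by injury, cytokines and the transcription factor NF-kappaB, and recruits neutrophils, monocytes and activated T cells. Another set is made steadily by stroma and epithelium and positions cells in the resting tissue, with Cxcl12 as its best known member. In newborn rodents high oxygen is known to bring neutrophils and monocytes into the lung.

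Promoter sequence was read for 22 of the 33 members from RefSeq (assembly GRCm38.p6), as the 250 bases before each annotated start. Ccl2, Ccl4, Ccl7 and Cxcl5 were among the members without a sequence. Matches are counted by gene for the members, over all promoters of a gene, and by promoter for the background, so these shares are not fully alike. NF-kappaB motifs were searched as GGG, any 3 bases, then TTCC or TCCC, on both strands, with overlapping matches merged. At least 1 match was found in 10 of the 22 members (Ccl1, Ccl9, Ccl19, Ccl20, Cxcl1, Cxcl2, Cxcl3, Cxcl9, Cxcl10 and Cxcl13) and in 8.8% of 32851 promoters of 27025 genes. The interferon-response motif, GAAA, any 2 bases, then GAAA, was found in 3 of the 22 (Ccl19, Cxcl10 and Cxcl14) and in 2.98% of all promoters, and the AP-1 motif TGANTCA in 3 of the 22 (Ccl9, Ccl27a and Cxcl10) and in 6.75%. The 5 promoters shown belong to 4 chemokines that read high together on single arrays and to Cxcl14, the member with the smallest p. They lie at chr5:90890995-90891244 on the plus strand (Cxcl1), chr5:90785851-90786100 on the plus strand (Cxcl3), chr5:92348890-92349139 on the minus strand (Cxcl10), chr11:83649379-83649628 on the minus strand (Ccl3) and chr13:56296552-56296801 on the minus strand (Cxcl14). Each runs 5′ to 3′ along the gene and ends at the base before the start. Capitals mark NF-kappaB matches, except in Cxcl14, where they mark the interferon-response match.
Cxcl1: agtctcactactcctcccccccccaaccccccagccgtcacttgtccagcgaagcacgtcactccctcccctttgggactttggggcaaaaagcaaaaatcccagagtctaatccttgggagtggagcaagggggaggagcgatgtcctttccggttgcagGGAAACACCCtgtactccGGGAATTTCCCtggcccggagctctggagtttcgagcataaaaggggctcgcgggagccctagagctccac
Cxcl3: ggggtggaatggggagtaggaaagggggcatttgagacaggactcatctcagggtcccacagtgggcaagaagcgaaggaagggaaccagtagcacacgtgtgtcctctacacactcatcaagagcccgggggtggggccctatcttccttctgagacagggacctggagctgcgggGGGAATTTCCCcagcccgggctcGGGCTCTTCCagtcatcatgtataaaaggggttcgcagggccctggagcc
Cxcl10: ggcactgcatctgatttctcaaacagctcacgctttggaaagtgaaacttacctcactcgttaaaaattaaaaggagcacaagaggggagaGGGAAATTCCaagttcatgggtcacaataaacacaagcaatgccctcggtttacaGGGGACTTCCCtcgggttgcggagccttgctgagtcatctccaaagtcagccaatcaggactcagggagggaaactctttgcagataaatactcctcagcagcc
Ccl3: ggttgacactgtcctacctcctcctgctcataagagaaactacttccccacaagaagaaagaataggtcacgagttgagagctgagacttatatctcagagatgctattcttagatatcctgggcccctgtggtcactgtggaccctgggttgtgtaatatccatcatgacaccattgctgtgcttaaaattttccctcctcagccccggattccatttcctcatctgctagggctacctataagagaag
Cxcl14: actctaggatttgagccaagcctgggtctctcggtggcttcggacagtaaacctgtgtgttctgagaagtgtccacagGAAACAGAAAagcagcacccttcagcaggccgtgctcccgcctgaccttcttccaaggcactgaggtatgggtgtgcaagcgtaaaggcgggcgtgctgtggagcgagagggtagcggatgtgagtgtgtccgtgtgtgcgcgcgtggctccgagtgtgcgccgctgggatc
The neutrophil chemokines Cxcl1 and Cxcl3 carry the same 11 letters, GGGAATTTCCC, at 71 to 61 and 73 to 63 bases before the start. Cxcl10 holds an NF-kappaB match at 159 to 150 and another at 104 to 94 bases, and, not capitalised here, GAAAGTGAAA at 213 to 204 and the AP-1 letters TGAGTCA at 74 to 68. The match of Cxcl14 is GAAACAGAAA, at 172 to 163. In Ccl3 no NF-kappaB match was found within this window, which says only that those letters are not in these 250 bases. A match describes letters and is not a measured binding site.

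Fgf10 itself was no check of the labels. Its brightest feature read 8.04 ± 0.20 on the arrays labelled Fgf10+/- and 7.81 ± 0.28 on those labelled wild-type (SD, n = 4 each; p = 0.2 in an exact permutation test). The mean was higher on the former in 10 of its 10 features, and which part of the allele they cover is not given. The 8 array medians lay between 3.6897 and 3.6904. Wild-type array 1 stood apart from its group for chemokines and array 2 labelled Fgf10+/- did so less widely, as described next, and the 13 members for which they were the 2 highest arrays are given with and without each. In whole lung, fewer cells of a type and less RNA per cell cannot be told apart.

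No chemokine passed the test between the genotypes. At an adjusted p below 0.05, 0 of the 28 tested members were called by limma, against 0.795% of all 17229 genes (137 genes). Higher in the lungs labelled Fgf10+/- were 39 genes (0.226%) and lower 98 (0.569%), with 0 members in either direction. At an adjusted p below 0.1 it was 1 of 28 members, Cxcl14, against 1.61% of all genes. The count over all genes was 34 without wild-type array 2, 62 to 86 without any 1 array labelled Fgf10+/-, 62 without wild-type array 4, and 142 and 173 without wild-type arrays 3 and 1. At an unadjusted p below 0.05 there were 2 of 28 members, Cxcl14 and Cxcl12, both lower in the lungs labelled Fgf10+/-, against 11.2% of all genes. The groups did not overlap in 1 of 28 members, Cxcl14, against 6.64% of all genes. The difference, arrays labelled Fgf10+/- minus wild-type, was below 0 in 17 of 28 members and in 48.7% of all genes. Its median was -0.11 over the members and 0.01 over all genes. It was 0.04 over the members without wild-type array 1.

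**Figure D1:**
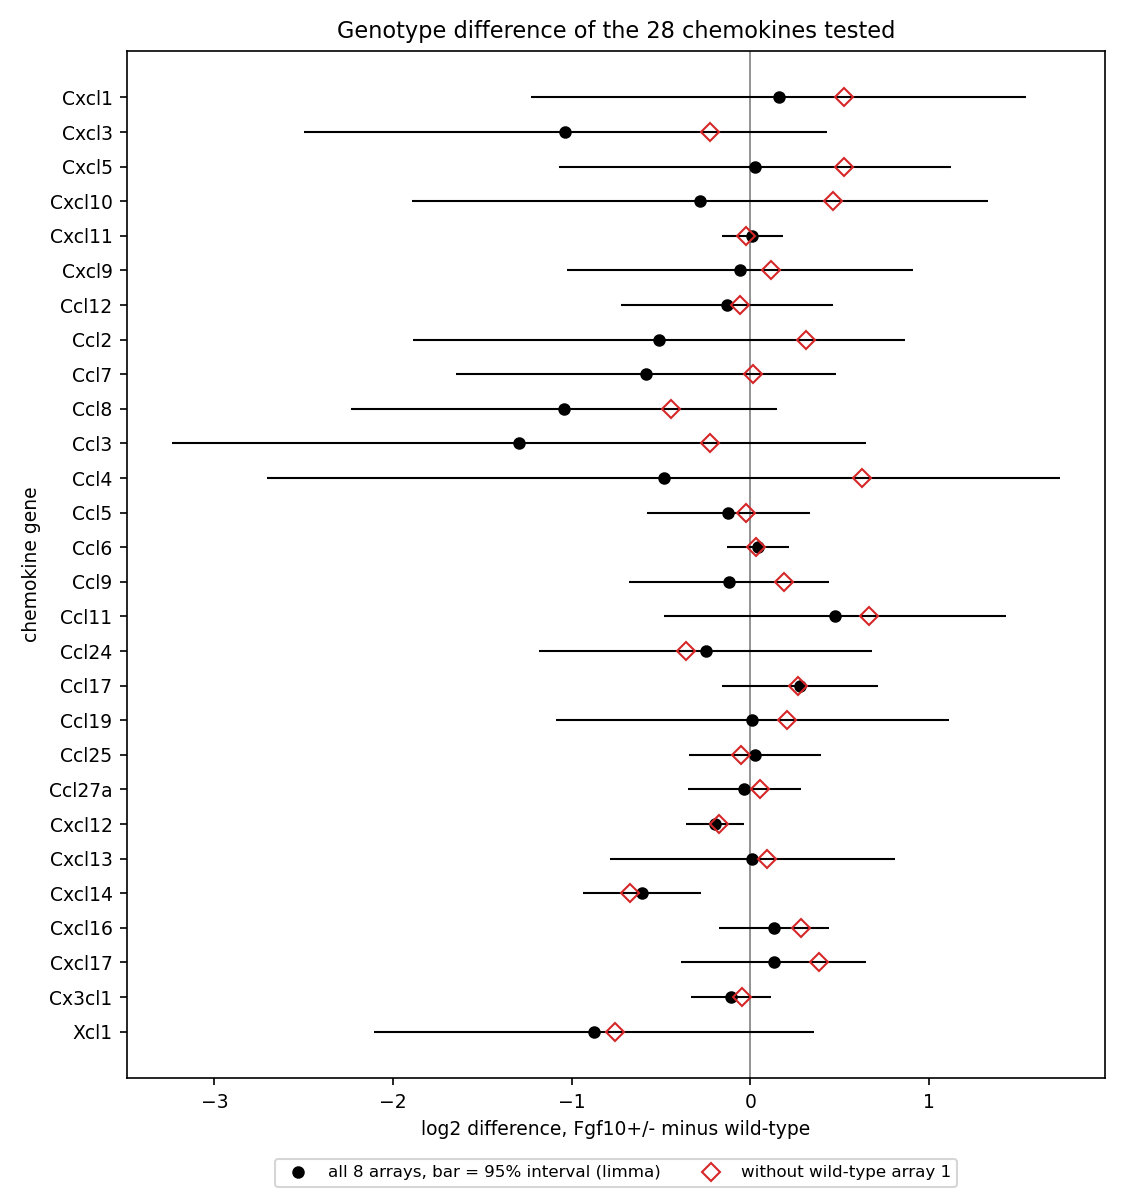
Log2 difference (x axis, arrays labelled Fgf10+/- minus wild-type) of the 28 tested chemokines (y axis, in receptor groups). Dots and bars give limma's estimate and 95% interval over all 8 arrays, and diamonds the estimate without wild-type array 1. The intervals of Cxcl14 and Cxcl12 lie below 0, the other 26 include 0, and 9 diamonds lie on the other side of 0 from their dots, those of Ccl2, Ccl4, Ccl7, Ccl9, Ccl25, Ccl27a, Cxcl9, Cxcl10 and Cxcl11.

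Cxcl14 had the smallest p of all members. It is a CXC chemokine made by epithelium and stroma of resting tissue. On wild-type arrays 1 to 4 it read 8.95, 9.12, 9.01 and 9.53, and on arrays 1 to 4 labelled Fgf10+/- it read 8.49, 8.48, 8.33 and 8.88. Every array labelled Fgf10+/- lay below every wild-type array, and the closest pair, wild-type array 1 and array 4 labelled Fgf10+/-, were 8.95 and 8.88. The difference was -0.61 (SE 0.15, 95% interval -0.93 to -0.28, limma adjusted p = 0.0983), so the wild-type mean was 1.52 times as high, and the result missed the threshold. With 1 array left out at a time the lowest difference was -0.72, when array 4 labelled Fgf10+/- was dropped, and the one closest to 0 was -0.48, when wild-type array 4 was dropped, with adjusted p from 0.0681 to 0.264.

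Cxcl12, the stromal chemokine that retains progenitor cells and guides endothelium through Cxcr4, varied little. It read 12.47, 12.41, 12.33 and 12.45 on wild-type arrays 1 to 4 and 12.19, 12.13, 12.19 and 12.36 on those labelled Fgf10+/-. The groups overlapped by 1 array, since array 4 labelled Fgf10+/- read above wild-type array 3. The difference was -0.20 (SE 0.07, 95% interval -0.36 to -0.04, limma adjusted p = 0.321), and its other, dimmer feature differed by -0.31. The groups lay apart once array 4 labelled Fgf10+/- or wild-type array 3 was left out.

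The scavenger of Cxcl12 was among the genes called. Ackr3, an atypical receptor that takes up Cxcl12 and Cxcl11 without signalling through G proteins, read 9.42, 9.42, 9.43 and 9.40 on the wild-type arrays and 8.86, 8.82, 9.05 and 8.97 on the arrays labelled Fgf10+/-. The groups did not overlap and the wild-type arrays had an SD of 0.013. The difference was -0.50 (SE 0.10, limma adjusted p = 0.0307). This call held without wild-type array 1 (adjusted p = 0.0492), and the adjusted p was 0.058 to 0.104 without any other single array and 0.172 without the variance trend. The signalling receptor Cxcr4, named after its values were seen, differed by 0.19 (SE 0.25, limma adjusted p = 0.84).

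**Figure D2:**
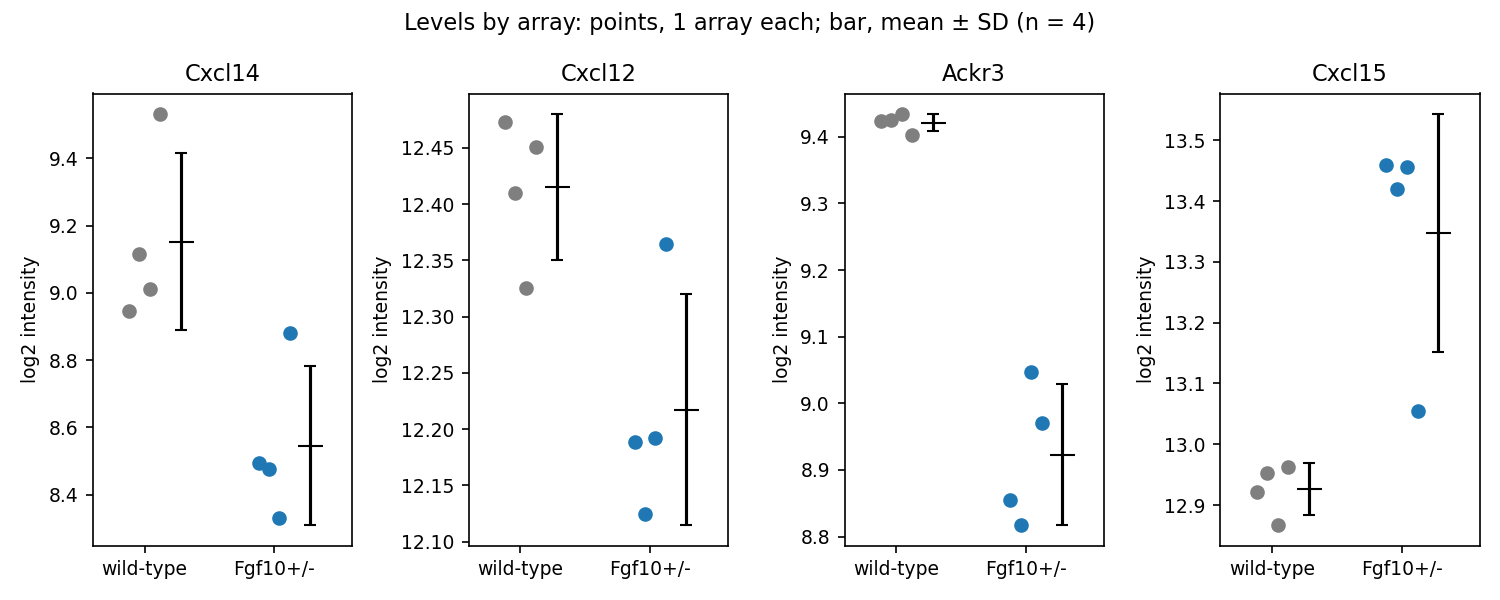
Log2 intensity (y axis, a separate range for each gene, not starting at 0) of Cxcl14, Cxcl12, the atypical receptor Ackr3 and the epithelial chemokine Cxcl15 on each array. Points are single arrays, 1 to 4 from left to right in each group, and bars are mean ± SD (n = 4). The groups lie apart in Cxcl14, Ackr3 and Cxcl15 and overlap by 1 array in Cxcl12.

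The remaining chemokines of resting epithelium and stroma gave small differences. Cxcl16, a transmembrane chemokine and scavenger receptor for oxidised lipids, read 9.15, 8.59, 8.60 and 8.51 on the wild-type arrays and 8.94, 8.86, 8.89 and 8.70 on those labelled Fgf10+/-. Wild-type array 1 read above all other arrays and the other 3 wild-type arrays read below all 4 labelled Fgf10+/-. The difference was 0.13 (SE 0.14, limma adjusted p = 0.797), and 0.28 without wild-type array 1. Cxcl17, a chemokine of airway mucosa, read 11.11, 10.004, 10.46 and 9.79 on the wild-type arrays and 10.55, 10.93, 10.29 and 10.13 on the others. Its groups overlapped fully, with a difference of 0.13 (SE 0.24) that was 0.39 without wild-type array 1, -0.06 without wild-type array 4 and -0.02 once array 2 labelled Fgf10+/- was dropped. Cxcl13, which draws B cells into follicles, differed by 0.01 (SE 0.37) over a range of 1.51 across the 8 arrays.

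Cx3cl1, the membrane-bound chemokine of endothelium and epithelium that is read by monocytes through Cx3cr1, held a narrow range. Its values were 9.80, 9.53, 9.70 and 9.46 on the wild-type arrays and 9.64, 9.49, 9.42 and 9.51 on those labelled Fgf10+/-, which overlap. The difference was -0.11 (SE 0.10, 95% interval -0.33 to 0.12), and -0.05 without wild-type array 1. Xcl1, the C chemokine of T and NK cells, scattered widely. It read 4.12, 5.24, 2.14 and 3.59 on the wild-type arrays and 3.85, 2.45, 2.47 and 2.81 on the others, a difference of -0.88 (SE 0.57, limma adjusted p = 0.614). Wild-type arrays 2 and 3 were the highest and the lowest of all 8, and the difference was -0.39 without array 2 and -1.42 without array 3.

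Many inflammatory chemokines varied widely between single arrays of the same genotype. Of the 28 tested members, 15 read highest on wild-type array 1, where 13.2% of all genes did. These 15 were not only inflammatory chemokines, since Cxcl12, Cxcl16, Cxcl17, Cx3cl1 and Ccl27a were among them. In 13 of 28 members wild-type array 1 and array 2 labelled Fgf10+/- were the 2 highest arrays of the 8, against 4.49% of all genes. These were Ccl2, Ccl3, Ccl4, Ccl7, Ccl8, Ccl9, Ccl27a, Cxcl1, Cxcl3, Cxcl5, Cxcl9, Cxcl10 and Cxcl17. For Ccl27a this held on its brightest feature only. Its dimmer features, also past the filter, were highest on wild-type array 3 (8.12) and on array 4 labelled Fgf10+/- (6.70). At least 1 log2 unit separated wild-type array 1 from the mean of the other wild-type arrays in 11 of 28 members and in 3.6% of all genes, and array 2 labelled Fgf10+/- from the rest of its group in 9 of 28 members and 2.7% of all genes. At the low end, 9 of 28 members read lowest on wild-type array 4, against 19.3% of all genes.

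**Figure D3:**
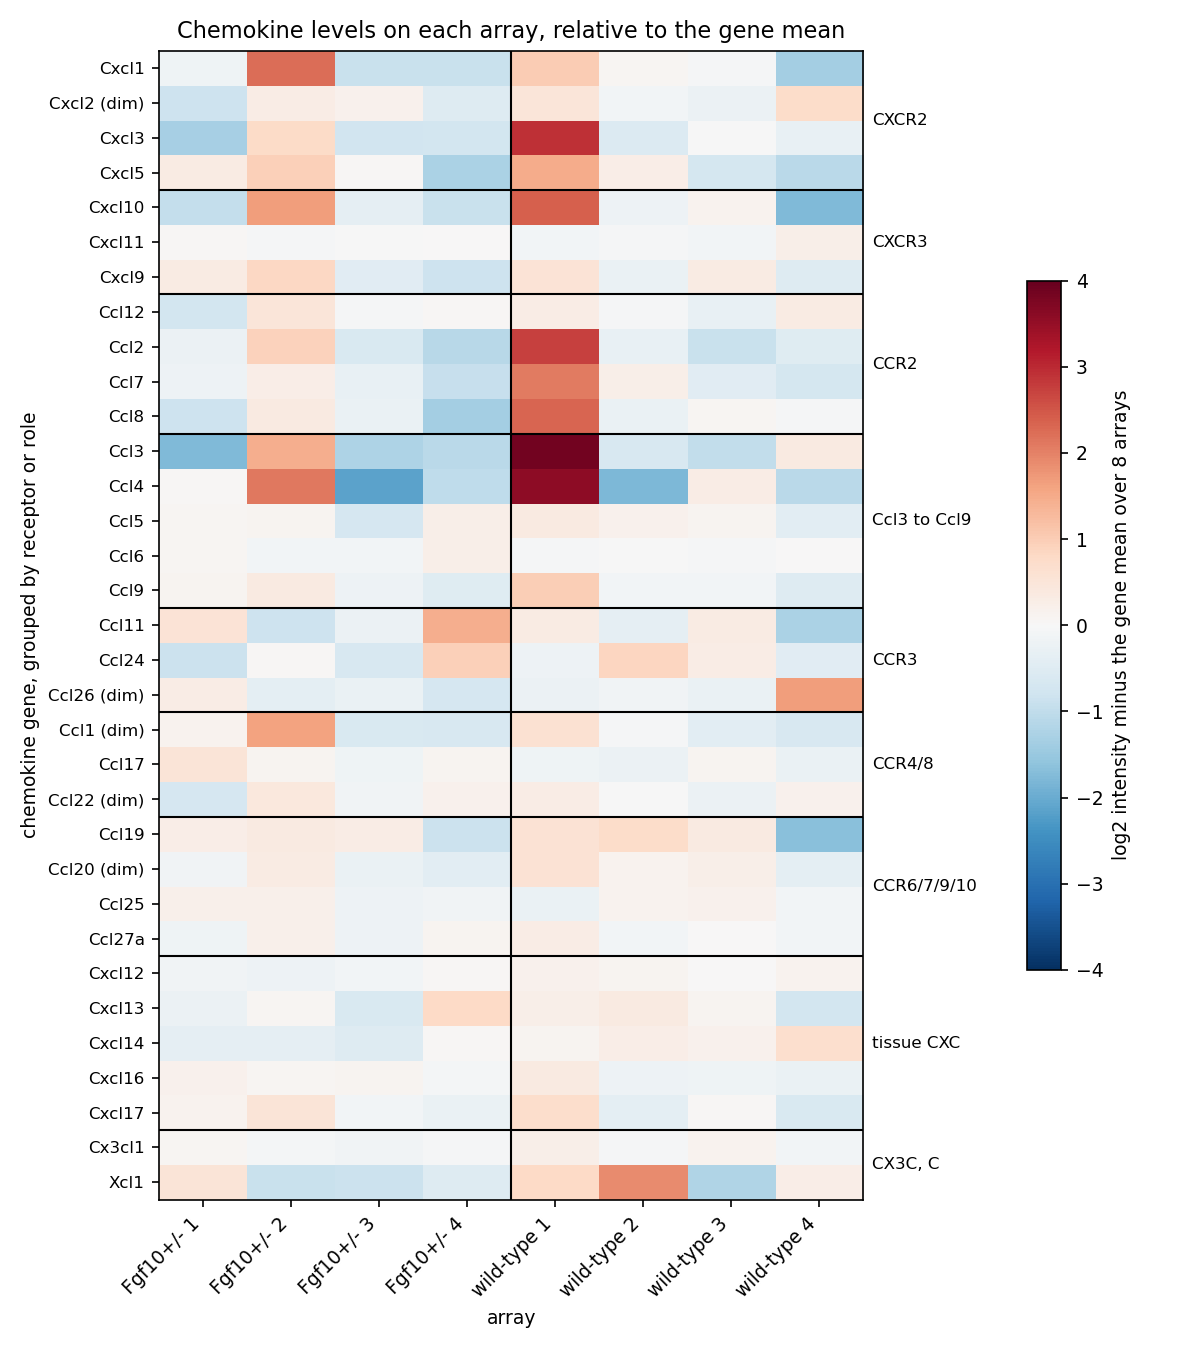
Log2 intensity of each of the 33 chemokines on each array minus the gene's mean over the 8 arrays (colour, blue for values below the mean and red for values above it), with genes in rows by receptor group and arrays in columns. The dim genes below the filter are marked. Wild-type array 1 and array 2 labelled Fgf10+/- are red for most ligands of CXCR2 and CCR2 and for Ccl3 and Ccl4, while Ccl6 and the CXCR3 ligand Cxcl11 are nearly white on all arrays.

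**Figure D4:**
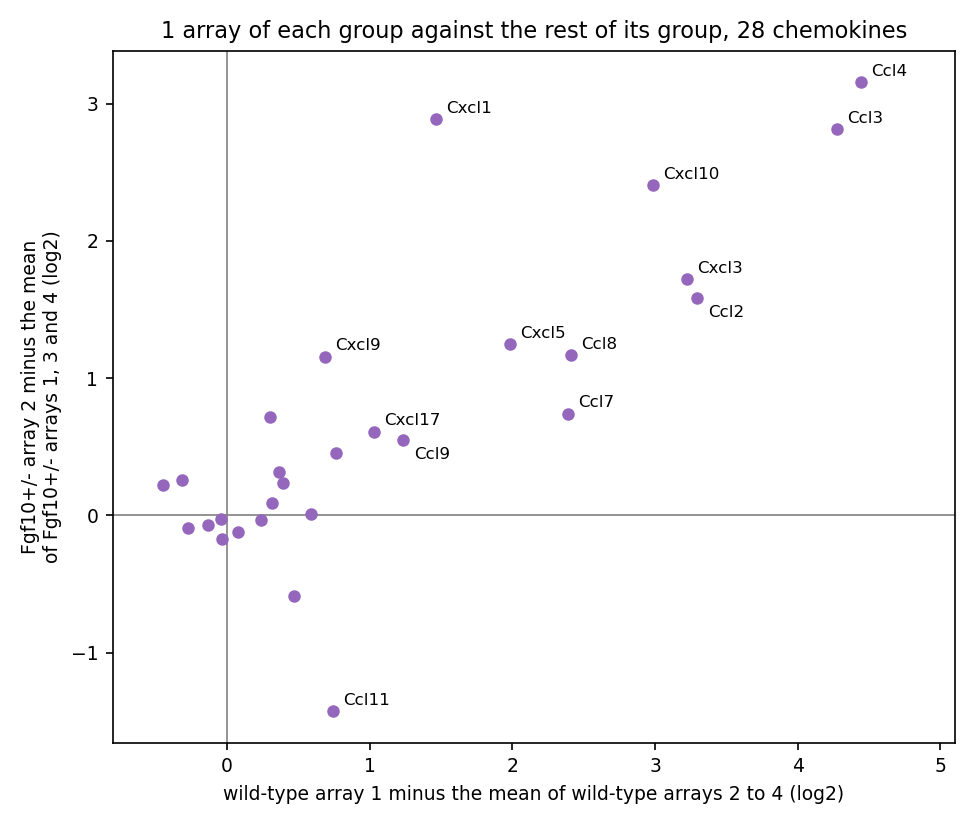
Each point is 1 of the 28 tested chemokines. The x axis is wild-type array 1 minus the mean of wild-type arrays 2 to 4, and the y axis is array 2 labelled Fgf10+/- minus the mean of the other 3 arrays of its group, both in log2 units. Ccl4, Ccl3, Cxcl10, Cxcl3 and Ccl2 lie far from 0 on both axes, while Ccl11 is below its group's mean on array 2 labelled Fgf10+/-.

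The CXCR2 ligands, which recruit neutrophils, are Cxcl1, Cxcl2, Cxcl3 and Cxcl5. Cxcl1 read 5.70, 4.77, 4.62 and 3.31 on the wild-type arrays and 4.52, 6.92, 3.79 and 3.80 on those labelled Fgf10+/-. Its highest value was on array 2 labelled Fgf10+/- and its second highest on wild-type array 1. The difference was 0.16 (SE 0.64, limma adjusted p = 0.953), -0.56 once array 2 labelled Fgf10+/- was dropped, -0.27 without wild-type array 4 and 0.52 without wild-type array 1. Cxcl3, whose promoter shares the 11 letters above with Cxcl1, read 6.96, 3.48, 4.00 and 3.73 against 2.68, 4.80, 3.26 and 3.29. Wild-type array 1 lay 3.22 above the mean of its group's other arrays. The difference was -1.04 (SE 0.68, limma adjusted p = 0.616). It was -0.23 without wild-type array 1, -1.47 with array 2 labelled Fgf10+/- dropped instead, and -0.66 with both dropped. Cxcl5, an epithelial CXCR2 ligand, ranged from 6.53 to 9.27 over the 8 arrays, with a difference of 0.03 (SE 0.51) that was 0.52 without wild-type array 1 and -0.29 with array 2 labelled Fgf10+/- dropped instead. Cxcl2 was dim, at 3.19, 2.58, 2.45 and 3.43 on the wild-type arrays and 1.88, 2.98, 2.88 and 2.18 on the others, and an exact permutation test gave p = 0.286.

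Among the CXCR3 ligands, which recruit activated T cells and are induced by interferons, Cxcl10 showed the same arrays on top. It read 6.89, 4.31, 4.66 and 2.74 on the wild-type arrays and 3.55, 6.17, 4.13 and 3.61 on those labelled Fgf10+/-. Its values spanned 4.15 log2 units, with wild-type arrays 1 and 4 at the ends. The difference was -0.28 (SE 0.75, limma adjusted p = 0.925), 0.46 without wild-type array 1 and -0.88 with array 2 labelled Fgf10+/- dropped instead. Cxcl9 lay just above the filter on dim features, at 1.98 to 3.66, with a difference of -0.06 (SE 0.45) that was 0.11 without wild-type array 1 and -0.35 with array 2 labelled Fgf10+/- dropped instead. Cxcl11 read 15.47 to 15.82 on every array, near the highest value of the table (15.99), and its other feature read 8.90 to 9.44. RefSeq lists Cxcl11 of this assembly as a transcribed pseudogene within the span of Art3, which also covers Cxcl10, so what its bright feature measures was not tested.

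The CCR2 ligands Ccl2, Ccl7, Ccl8 and Ccl12 recruit monocytes, and all 4 had a negative difference that missed the threshold. Ccl2, the main monocyte chemoattractant, read 10.61, 7.58, 6.98 and 7.38 on the wild-type arrays and 7.65, 8.81, 7.28 and 6.76 on those labelled Fgf10+/-. Wild-type array 1 lay 3.30 above the mean of its group's other arrays, and array 2 labelled Fgf10+/- was next. All 10 features of Ccl2 showed this, at 10.25 to 10.95 on wild-type array 1 and 5.37 to 8.85 on the other 7 arrays. The difference was -0.51 (SE 0.64, limma adjusted p = 0.832), 0.31 without wild-type array 1 and -0.91 with array 2 labelled Fgf10+/- dropped instead. Ccl7 read 7.73, 5.90, 5.20 and 4.94 against 5.45, 5.91, 5.35 and 4.72, a difference of -0.58 (SE 0.49) that was 0.01 without wild-type array 1 and -0.77 with array 2 labelled Fgf10+/- dropped instead. Ccl8 read 6.03, 3.44, 3.78 and 3.65 on the wild-type arrays and 2.88, 4.06, 3.43 and 2.36 on the others. Its difference was -1.05 (SE 0.55, limma adjusted p = 0.524), -0.44 without wild-type array 1 and -1.34 with array 2 labelled Fgf10+/- dropped instead. Ccl12 did not follow the pattern, with 5.52 to 6.15 on the wild-type arrays, 5.07 to 6.29 on the others and its highest value on array 2 labelled Fgf10+/-.

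Ccl3 and Ccl4, made by activated macrophages, spread the most. Ccl3 read 9.65, 5.17, 4.81 and 6.16 on the wild-type arrays and 4.04, 7.26, 4.57 and 4.73 on those labelled Fgf10+/-. Wild-type array 1 was 4.27 above the mean of its group's other arrays and array 2 labelled Fgf10+/- was 2.82 above that of its own. The difference was -1.30 (SE 0.90, 95% interval -3.24 to 0.65, limma adjusted p = 0.646). It was -0.23 without wild-type array 1 and -1.9995 with array 2 labelled Fgf10+/- dropped instead. Ccl4 spanned 2.45 to 8.15, with a difference of -0.48 (SE 1.03) that was 0.63 without wild-type array 1. With an array labelled Fgf10+/- dropped it was -1.27 for array 2 and 0.15 for array 3. In the RefSeq table the spans of Ccl3 and Ccl4 overlap, so signal shared between them was not tested.

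The other CC chemokines beside them, Ccl5, Ccl6 and Ccl9, ranged less. Ccl6, a chemokine of resting macrophages and granulocytes, read 12.97, 13.002, 12.97 and 13.05 on the wild-type arrays and 13.09, 12.91, 12.93 and 13.24 on those labelled Fgf10+/-. The groups overlapped within a range of 0.33, and the difference was 0.04 (SE 0.08, 95% interval -0.13 to 0.22). Ccl9 reached 11.37 on wild-type array 1 against 9.86 to 10.73 elsewhere, with a difference of -0.12 (SE 0.26) that was 0.19 without wild-type array 1 and -0.26 with array 2 labelled Fgf10+/- dropped instead. Ccl5, made by T cells, lay between 7.17 and 8.19 with a difference of -0.12 (SE 0.21).

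The count of large negative differences fell or rose with the array left out. The difference was below -0.5 in 7 of 28 members (Ccl2, Ccl3, Ccl7, Ccl8, Cxcl3, Cxcl14 and Xcl1), against 6.66% of all genes. Without wild-type array 1 it was below -0.5 in 2 of 28, Cxcl14 and Xcl1, against 7.42% of all genes. It was below -0.5 in 10 of 28 without array 2 labelled Fgf10+/- and in 9 of 28 without wild-type array 4. The share over all genes is not given for these settings. Dropping both wild-type array 1 and array 2 labelled Fgf10+/- was decided after seeing the data. The difference then was below -0.5 in Ccl3 (-0.93), Ccl8 (-0.73), Cxcl3 (-0.66), Cxcl14 (-0.65) and Xcl1 (-0.61), 5 of 28 against 8.11%. In that comparison of 3 against 3 arrays the groups did not overlap in 5 of 28 members, Ccl3, Ccl8, Cxcl3, Cxcl14 and Cxcl16, against 16.2% of all genes, and 0 of 28 members were called by limma against 0.830% of all genes, the smallest adjusted p being 0.139 for Cxcl14. At an unadjusted p below 0.05 that fit gave 3 of 28 members and 10.9% of all genes. With single arrays dropped, the groups lay apart in 4 members without array 2 labelled Fgf10+/- (Ccl3, Ccl8, Cxcl3 and Cxcl14, against 10.3% of all genes) and in 3 without wild-type array 3 (Ccl17, Cxcl12 and Cxcl14, against 11.5%). They lay apart in 2 without wild-type array 1 (Cxcl14 and Cxcl16, 11.1%), wild-type array 4 (Ccl19 and Cxcl14, 10.3%) or array 4 labelled Fgf10+/- (Cxcl12 and Cxcl14, 10.5%). Without wild-type array 2 (9.43%) or arrays 1 (9.33%) and 3 (9.47%) labelled Fgf10+/-, Cxcl14 was the 1 such member.

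The eotaxins, which recruit eosinophils through CCR3, did not follow the same arrays. Ccl11 read 7.12, 6.46, 7.14 and 5.54 on the wild-type arrays and 7.36, 5.97, 6.56 and 8.27 on those labelled Fgf10+/-. Array 4 labelled Fgf10+/- was the highest and wild-type array 4 the lowest, with array 2 labelled Fgf10+/- next to it. The difference was 0.48 (SE 0.44, 95% interval -0.48 to 1.43, limma adjusted p = 0.758), the largest positive value among the members. It was 0.07 without array 4 labelled Fgf10+/- and 0.83 once array 2 of that group was dropped. Ccl24 differed by -0.25 (SE 0.43). Ccl26 was dim, at 2.32, 2.42, 2.28 and 4.20 on the wild-type arrays and 2.83, 2.17, 2.28 and 1.86 on the others (exact permutation p = 0.371).

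Ligands of the homing receptors on lymphocytes and dendritic cells were mostly dim or flat. Ccl17, the CCR4 ligand of dendritic cells, read 6.20, 6.15, 6.49 and 6.09 on the wild-type arrays and 6.88, 6.49, 6.20 and 6.46 on those labelled Fgf10+/-. Arrays 2, 3 and 4 labelled Fgf10+/- lay within the wild-type range, and wild-type array 3 lay within the range of the arrays labelled Fgf10+/-. The difference was 0.28 (SE 0.20, limma adjusted p = 0.666). Ccl19, which guides cells into lymph nodes through CCR7, read 4.38, 4.54, 4.17 and 2.13 on the wild-type arrays and 4.06, 4.15, 4.10 and 2.94 on the others, with array 4 lowest in both groups. Its dimmer features did not have array 4 lowest in both groups. The 3 features of Ccl19 differed by 0.01, -0.47 and -1.03, so they give no single direction. Ccl25, a thymic and gut chemokine, likewise had features at 0.02, -0.73 and -0.39, the last below the filter. Ccl27a, an epithelial CCR10 ligand, differed by -0.04 (SE 0.15), 0.06 without wild-type array 1 and -0.11 with array 2 labelled Fgf10+/- dropped instead, and its 3 features lay between -0.044 and -0.035. Ccl1, Ccl20 and Ccl22 were dim, at 1.94 to 4.30 over all arrays, with exact permutation p of 0.743, 0.371 and 0.743. For 4 against 4 arrays the smallest exact p is 0.0286 over 70 assignments. Ccl21b, Ccl21c and Ccl27b were not analysed here.

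Chemokines outside the member rule included 1 called gene. Cxcl15, a lung epithelial chemokine, read 12.92, 12.95, 12.87 and 12.96 on the wild-type arrays and 13.46, 13.42, 13.46 and 13.05 on those labelled Fgf10+/-, with the groups apart. The difference was 0.42 (SE 0.09, limma adjusted p = 0.0486). It passed without array 4 labelled Fgf10+/- (adjusted p = 0.015) and had adjusted p from 0.0635 to 0.171 without any other single array. With all arrays kept, the adjusted p was 0.0601 without the filter on dim features, 0.0612 and 0.0609 with the mean of features and the feature of largest spread, and 0.279 without the variance trend. The platelet chemokine Pf4 differed by -0.67 (SE 0.16, limma adjusted p = 0.0799).

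The receptors that read these ligands showed no call. Of 14 tested signalling and related receptors 0 passed limma's test and 1 had an unadjusted p below 0.05, 8 with negative and 6 with positive differences (median -0.08). The smallest p was that of Ccr6, the receptor of Ccl20, at 6.35 ± 0.34 on arrays labelled Fgf10+/- and 5.57 ± 0.26 on wild-type arrays (SD, n = 4 each). Its difference was 0.78 (SE 0.24, limma adjusted p = 0.181). Ccr10, the receptor of Ccl27a, came next at 0.72 (SE 0.45, limma adjusted p = 0.593). Of the 4 atypical receptors Ackr3 alone was called. Ackr2, which clears inflammatory CC chemokines, differed by -0.39 (SE 0.09, limma adjusted p = 0.0531) with the groups apart, while its feature with the largest spread gave 0.06.

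Genes around the chemokine pathway were read on the same arrays. None of 12 tested cytokine and NF-kappaB genes was called by limma (2 at an unadjusted p below 0.05), and their mean level was 7.33 on wild-type array 1, 6.70 on array 2 labelled Fgf10+/- and 6.17 to 6.64 on the other 6 arrays. Of these 12 genes 6 had negative and 6 positive differences (median -0.01). Il6 differed by -1.14 (SE 0.44, limma adjusted p = 0.334), and by -0.44 with its feature of largest spread. The adhesion molecule Icam1 differed by -0.41 (SE 0.19, limma adjusted p = 0.427). None of 9 tested interferon targets was called by limma (1 at an unadjusted p below 0.05), and their mean level was 7.35 to 7.76 over all 8 arrays, 7.69 on wild-type array 1 and 7.76 on array 2 labelled Fgf10+/-. Isg15 differed by 0.64 (SE 0.16, limma adjusted p = 0.0926) and Oas2 by -0.29 (SE 0.26).

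Markers of the cells that make or follow chemokines were read on the same arrays. None was called by limma in any of the 10 marker lists. At an unadjusted p below 0.05 there were 4 of 10 macrophage markers, 0 of 9 for neutrophils, 0 of 4 for monocytes and 0 of 7 for lymphocytes. The mean level of 10 macrophage markers was 8.28 on wild-type array 1, 7.76 to 8.24 on the other wild-type arrays and 7.55 to 7.85 on those labelled Fgf10+/-, with 7 of 10 negative and a median difference of -0.42. The macrophage markers did not rise together on wild-type array 1. Cd68, Adgre1, C1qb, C1qc, Csf1r and Fcgr1 were highest there, Mrc1 (8.47) and Marco (10.42) were lowest there, and C1qa and Siglecf were neither. Over 4 monocyte markers the level was 9.66 on wild-type array 1 and 9.06 to 9.35 elsewhere. Of these, Ccr2 (6.90) and Plac8 (10.58) were highest on wild-type array 1. F13a1 (8.45) was the lowest of the wild-type arrays there, and Ms4a4c (12.70) was not raised. Over 9 neutrophil markers the 2 highest arrays were array 1 labelled Fgf10+/- (9.62) and wild-type array 1 (9.52), and array 2 labelled Fgf10+/- read 8.54. Lymphocyte markers were highest on array 2 labelled Fgf10+/-, at 6.67 against 5.90 to 6.28. Their part in the chemokine values was not tested. Of 8 markers of lung mesenchyme and vessels 7 had a negative difference (median -0.24, 2 at an unadjusted p below 0.05), with mean levels of 10.19 to 10.64 on the wild-type arrays and 10.04 to 10.28 on those labelled Fgf10+/-. All 5 platelet markers, Pf4 among them, had negative differences (median -0.52, 1 at an unadjusted p below 0.05), with mean levels of 6.998 to 8.08 and 6.20 to 7.43. The part of either list in the values of Cxcl12, Cxcl14, Ackr3 and Pf4 was not tested. The 3 tested markers of mast cells and eosinophils were negative (median -0.17) and the 3 of red blood cells positive (median 0.16). Lung epithelial markers had mean levels of 12.43 to 12.57 on arrays labelled Fgf10+/- and 12.33 to 12.42 on the wild-type arrays. Of these 8 markers 6 had a positive difference (median 0.07, 1 at an unadjusted p below 0.05). Their part in the value of Cxcl15 was not tested. Thymus markers read 2.58 to 3.10, near the filter level of 2.76.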

How the data were processed

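The authors deposited log2 values for 62976 features on 8 arrays. The submitters' processing notes name limma, without a version. Background correction and detection calls are not given in the sources used here. Whether dim features exceeded background is therefore unknown. Features with a missing value (189) were dropped. Names came from the platform annotation, updated through RefSeq (GRCm38.p6). Features with a mean below the 30th percentile (2.76) were removed, and each gene was read from its brightest feature. Groups were compared in R 4.3.3 with limma 3.58.1 (lmFit, eBayes with variance trend), two-sided, with Benjamini-Hochberg adjustment over 17229 genes and calls below 0.05. The fit was tested on simulated data, in 10 runs with 200 changed genes each. It recovered 18.4% of changes of 0.5 and 48.7% of changes of 1 log2 unit, and 4.7% of its calls were false. A member without a call can therefore still differ. The changed genes were drawn at random from all genes tested, with noise drawn separately for each gene. These rates are not rates for the chemokines, many of which read high together on single arrays. Dim members were compared by exact permutation.

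The members and lists were chosen with earlier results of these data known. Values of every array are given for members with an adjusted p below 0.2, the 6 largest positive and 6 largest negative differences, members with 1 array apart in its group, and Cxcl12, Cxcl1, Cxcl2, Ccl2, Cxcl10 and Cx3cl1 (Ccl21b, also in the rule, was not analysed here). Other genes of the pathway are the called ones and the 2 with the smallest p of each list. Alternatives were other scalings, filters, features per gene, thresholds, array weights, no trend, a replicate block and leaving out arrays. Arrays have no read depth, and their number limits the precision.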

Additional observations from a re-analysis of the deposited data

Results flagged for a closer look

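In 6 chemokines 1 array of a group of 4 stood apart from the other 3 by Dixon's criterion at the 95% level, which flags about 1 in 20 groups by chance. Wild-type array 1 was the highest by this measure in Ccl2 (10.61, the others 6.98 to 7.58), Ccl8 (6.03, the others 3.44 to 3.78), Cxcl3 (6.96, the others 3.48 to 4.00) and Cxcl16 (9.15, the others 8.51 to 8.60). That is 4 of 28 tested members, against 0.894% of all genes. The brightest feature of Ccl19 read low on array 4 of both groups, at 2.13 among the wild-type arrays (the others 4.17 to 4.54) and 2.94 among those labelled Fgf10+/- (the others 4.06 to 4.15). Its dimmer features, also past the filter, did not repeat this. The next brightest read 4.59 on wild-type array 4, the highest of its group. The dimmest read 3.57 on array 4 labelled Fgf10+/-, the highest of that group. The dim gene Ccl26 read 4.20 on wild-type array 4 and 2.28 to 2.42 on the other wild-type arrays. Over all genes an array stood apart in 5.52% for the arrays labelled Fgf10+/- and 6.37% for the wild-type arrays, against 1 and 5 of 28 members. The source of these single-array values was not tested.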

How the results depend on the processing

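No member passed under 8 of the 10 other settings that kept all arrays, nor with any 1 array left out, where the count of called members was 0 each time. Cxcl14 passed with a replicate block (adjusted p = 0.0438) and at a threshold of 0.1, giving 1 called member in each. Over all 17229 genes tested, 116 were called with the block. With the block the adjusted p was 0.0727 for Ackr3, 0.0763 for Cxcl15 and 0.0446 for Isg15, so the first pair missed the threshold and Isg15 passed it. The replicate numbers are not labelled as pairs. The deviations of same-numbered arrays from their group means had weak correlations of either sign, -0.0046, -0.0645, 0.0275 and 0.0673. Of the 8 arrays 3 correlated best with their own number. These values cannot decide whether samples were paired, since litters are not given. Genes called were 1 without the variance trend (0 higher, 1 lower), 278 at a threshold of 0.1 (98 higher, 180 lower) and 34 to 173 with 1 array left out (15 to 54 higher, 19 to 129 lower). Members with groups apart were 1 to 4 with 1 array left out and 5 without wild-type array 1 and array 2 labelled Fgf10+/-. The members' median difference was -0.28 to 0.04 with 1 array left out, and members below -0.5 were 2 to 10. The sign changed in some alternative for 17 of 28 members and in none for 11. By setting, the reversed differences were Ccl19 -0.49 and Ccl25 -0.35 with the mean of all features, Ccl19 -1.03, Ccl25 -0.73 and Ackr2 0.064 with the feature of largest spread, Ccl19 -0.22, Ccl25 -0.021, Cxcl1 -7e-04, Cxcl13 -0.057 and Cxcl5 -0.033 with array weights, and Ccl25 -0.12, Ccl9 0.052, Cxcl1 -0.20 and Cxcl11 -0.0078 without both named arrays, the last of which was chosen after seeing the data. Differences with 1 array left out that crossed 0 ranged as follows: Ccl12 -0.31 to 0.096, Ccl19 -0.55 to 0.30, Ccl2 -0.91 to 0.31, Ccl25 -0.055 to 0.0999, Ccl27a -0.11 to 0.056, Ccl4 -1.27 to 0.63, Ccl5 -0.28 to 0.075, Ccl6 -0.024 to 0.086, Ccl7 -0.92 to 0.013, Ccl9 -0.31 to 0.19, Cxcl1 -0.56 to 0.52, Cxcl10 -0.92 to 0.46, Cxcl11 -0.025 to 0.090, Cxcl13 -0.25 to 0.21, Cxcl17 -0.055 to 0.39, Cxcl5 -0.33 to 0.52, Cxcl9 -0.35 to 0.21. The cause of these shifts was not tested. Signal over background is unknown for dim features.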
